A study of Mus musculus with 4 samples.

Results

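Liver genes of ornithine, urea and polyamine metabolism were followed in a polygenic obese line of mice, in males. They had eaten either trans-10, cis-12 conjugated linoleic acid (CLA), a fatty acid isomer, or linoleic acid as the control, each at 1% of the diet, for 14 days. Each of 4 two-colour arrays set RNA pooled from 4 or 5 CLA mice against RNA pooled from 4 or 5 control mice, with the CLA pool in red (Cy5) on arrays 1 and 2 and in green (Cy3) on arrays 3 and 4. Both diets were fed to the same obese line, so no lean animals enter the comparison, and the age and the name of the line are not given in the sources used here. Nothing in the labels says which arrays share a pool, so the spread given here is that between arrays, which may be technical. In pooled liver RNA, fewer cells of a type and less RNA per cell cannot be told apart.

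The set was defined by 10 gene symbols (Oat, Arg1, Otc, Ass1, Asl, Cps1, Odc1, Sat1, Srm and Amd1) and by any probe described as spermidine/spermine N1-acetyltransferase. This gave 10 of the 20868 probes outside controls. They stood for 8 of the 10 genes, each with 1 probe, plus a pair of probes that carry no symbol. Of the pair, Sat1-related probe A is described as weakly similar to the pig enzyme, and Sat1-related probe B as similar to the human one. Asl was found through its RefSeq accession, since the file names it only as a RIKEN cDNA. Cps1 and Srm had no probe under the rule. The set was chosen after CLA-over-control ratios of these arrays were known, so the ratios below are a description and no test is read from them.

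Ornithine stands where several liver pathways meet. In the urea cycle, carbamoyl phosphate synthetase (Cps1) makes carbamoyl phosphate from ammonia, ornithine transcarbamylase (Otc) joins it to ornithine, argininosuccinate synthetase (Ass1) and lyase (Asl) turn the product into arginine, and arginase (Arg1) releases urea and restores ornithine. Ornithine aminotransferase (Oat), a mitochondrial enzyme found in liver mainly in hepatocytes around the central vein, takes ornithine towards glutamate and proline. Ornithine decarboxylase (Odc1) takes it towards the polyamines putrescine, spermidine and spermine.

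The 3 measured enzymes that consume ornithine are therefore Oat, Otc and Odc1, and their promoters are shown because Oat stood apart from the other two in its ratio. The sequences are from RefSeq on GRCm38.p6, run 5′ to 3′ from 250 bases before to 50 bases after the start of the gene, and have in capitals each match to CCAAT or GGGCGG on either strand. TATAAA was also searched, and overlapping matches are shown as 1 run.
Oat, chr7:132576349-132576648, strand minus: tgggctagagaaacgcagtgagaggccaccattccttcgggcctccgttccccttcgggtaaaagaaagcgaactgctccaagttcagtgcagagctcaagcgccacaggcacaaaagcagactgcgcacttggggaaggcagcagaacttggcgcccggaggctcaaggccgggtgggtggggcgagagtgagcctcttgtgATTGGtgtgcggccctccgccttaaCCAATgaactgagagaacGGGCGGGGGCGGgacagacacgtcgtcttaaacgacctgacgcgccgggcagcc
Otc, chrX:10252055-10252354, strand plus: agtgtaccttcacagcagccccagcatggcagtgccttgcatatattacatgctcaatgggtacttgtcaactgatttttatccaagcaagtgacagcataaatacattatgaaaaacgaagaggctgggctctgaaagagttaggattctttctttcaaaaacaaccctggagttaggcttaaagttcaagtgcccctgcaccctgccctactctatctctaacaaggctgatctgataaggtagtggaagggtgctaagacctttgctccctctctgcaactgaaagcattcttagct
Odc1, chr12:17544623-17544922, strand plus: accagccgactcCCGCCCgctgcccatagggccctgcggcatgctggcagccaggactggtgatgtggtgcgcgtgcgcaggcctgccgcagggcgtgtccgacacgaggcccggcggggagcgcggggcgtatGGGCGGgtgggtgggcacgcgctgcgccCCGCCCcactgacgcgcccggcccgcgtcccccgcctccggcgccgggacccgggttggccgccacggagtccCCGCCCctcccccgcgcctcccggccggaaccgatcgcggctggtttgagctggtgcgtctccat
The Oat window held CCAAT 2 times and GGGCGG 2 times, the Odc1 window held GGGCGG 4 times, and the Otc window held neither. Of 6 members with an entry, 1 held CCAAT, 5 held GGGCGG and 0 held TATAAA. Among all 32851 promoters of the table the shares were 37.4%, 35.7% and 13.6%. A match describes only these letters in this window.

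Oat was the lowest of the 8 genes with CLA. The control intensity of Oat was 1226, 1259, 1404 and 1128 on arrays 1 to 4, and the CLA intensity was 562, 783, 1199 and 1067 (normalized linear intensities). The CLA channel was the dimmer one on every array, and the highest CLA value lay above the lowest control value, so the diets overlapped when arrays were not paired. As measured, log2 CLA over control was -1.12, -0.69, -0.23 and -0.079, below 0 on 4 of 4 arrays but far lower where CLA was in Cy5. Oat's own dye effect, the part of its red-over-green ratio that does not turn with the dye swap, was -0.38 on the log2 scale. With this removed the ratios were -0.75, -0.31, -0.60 and -0.46, with a mean of -0.53 ± 0.08 (SE by limma, n = 4 arrays), 1.44-fold higher in control. The value was the 17th from the lowest of 20176 genes and probes tested (0.0843% at or below it). Being below 0 on all 4 arrays as measured was seen in 4.66% of all tested, and Oat was the 1 probe of the set to meet it.

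**Figure D1:**
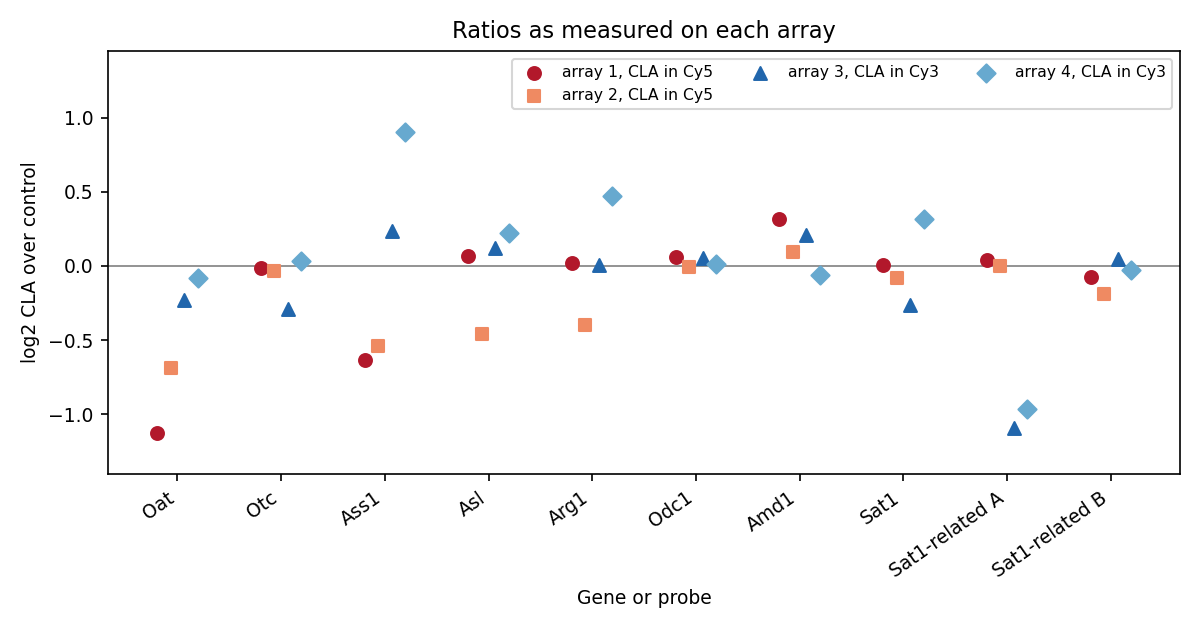
Log2 CLA over control of each of the 10 probes as measured, with 1 point per array and the dye that held CLA given by colour. Oat lay below 0 on all 4 arrays, while Ass1 lay below 0 with CLA in Cy5 (-0.64 and -0.54) and above 0 with CLA in Cy3 (0.24 and 0.90).

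The urea cycle genes stood nearer to 0 than Oat in their diet effects, with values that differed between arrays. Otc stood at -0.015, -0.034, -0.29 and 0.035 as measured on arrays 1 to 4, so that array 3 was the low one. Its diet effect was -0.08 ± 0.07 (SE, log2). The intensity of Otc ran from 979 to 1368 with CLA and from 990 to 1659 in control, ranges that overlap.

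Ass1, which builds argininosuccinate from citrulline and aspartate, had the widest spread of the set. As measured it was -0.64, -0.54, 0.24 and 0.90, below 0 where CLA was in Cy5 and above 0 where it was in Cy3. The dye effect of Ass1 (-0.58, log2 red over green) far exceeded its diet effect of -0.0094 ± 0.10. After its removal the arrays read -0.057, 0.038, -0.34 and 0.32. With the dye effect made equal in size across arrays Ass1 stood at -0.15, and with scaling between arrays at -0.13.

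Asl, the next enzyme, read 0.07, -0.46, 0.12 and 0.22 as measured, with array 2 apart from the others. With the dye effect removed it read 0.25, -0.28, -0.06 and 0.04, with array 1 highest and array 2 lowest. Its diet effect was -0.012 ± 0.09. Arg1, the last enzyme of the cycle, read 0.022, -0.40, 0.0073 and 0.47 and had a diet effect of 0.03 ± 0.10. On array 2 all 4 urea cycle genes lay below 0 as measured (median -0.43), and on array 4 none did (median 0.35). Arrays 1 and 3 had medians of 0.0033 and 0.06. With dye effects removed the medians were 0.089, -0.13, -0.22 and 0.17 on arrays 1 to 4. Array 3 was then the lowest, with Otc, Ass1, Asl and Arg1 all below 0. As measured, the 4 tested hepatocyte markers also had their lowest median on array 2 and their highest on array 4. The medians were -0.14, -0.46, 0.19 and 0.78 on arrays 1 to 4, although Ttr, transthyretin, ran otherwise (0.37, 0.17, -0.49 and -0.22). With its dye effect removed Ttr read 0.06, -0.15, -0.18 and 0.09. Apoa1, Ahsg and Trf were then likewise lowest on array 3 and highest on array 4. The summed intensity of the 4 hepatocyte markers ran from 81134 to 137155 with CLA and from 60070 to 143736 in control. The 3 tested Kupffer cell and macrophage markers had medians of -0.15, -0.44, -0.09 and 0.65 as measured. Their sum ran from 2072 to 2874 with CLA and from 1246 to 3016 in control. The part of either in the ratios of the urea cycle genes was not tested. With median centring of each array in place of the intensity-dependent correction, all 4 urea cycle genes lay below 0, at -0.28 for Otc, -0.26 for Ass1, -0.23 for Asl and -0.23 for Arg1, and Oat at -0.73.

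**Figure D2:**
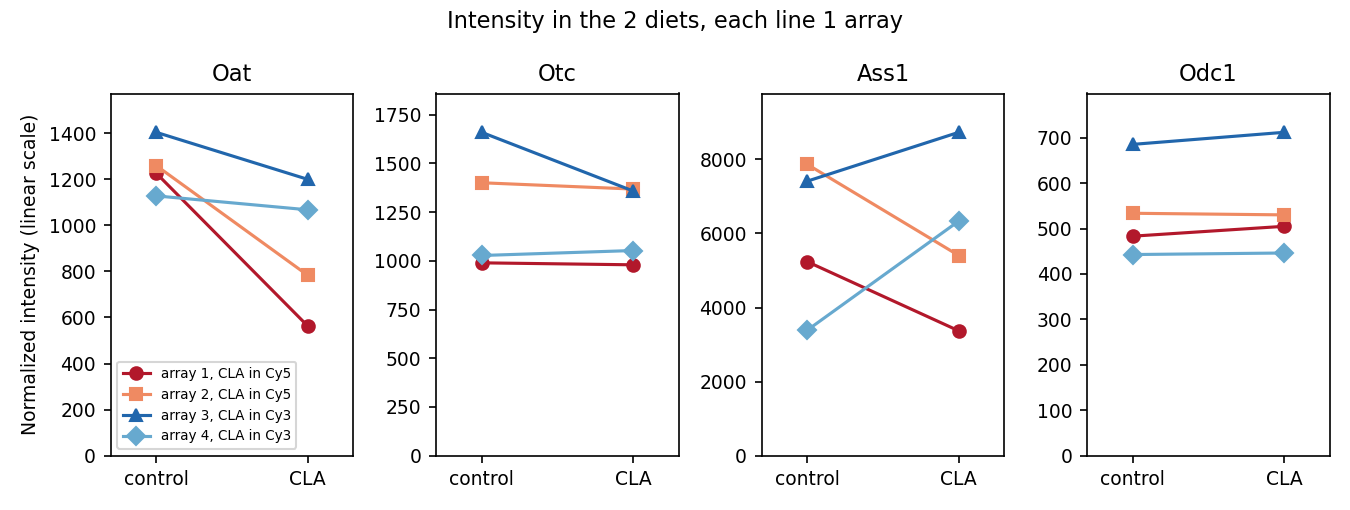
Normalized intensity (linear scale, each axis from 0) of Oat, Otc, Ass1 and Odc1 in control and CLA, with 1 line per array. The Oat lines all run down from control to CLA, from 1226 to 562 on array 1 and from 1128 to 1067 on array 4, while the Ass1 lines cross by dye.

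Among the polyamine genes, Odc1, the first committed enzyme, was the steadiest. It read 0.064, -0.0096, 0.055 and 0.011 as measured, with a dye effect near 0 (-0.003) and a diet effect of 0.03 ± 0.06. Its SD over the arrays, 0.035, was the smallest of the set. Amd1, S-adenosylmethionine decarboxylase, which supplies the aminopropyl groups of spermidine and spermine, read 0.32, 0.094, 0.21 and -0.062. As measured, array 4 alone was below 0. With the dye effect removed Amd1 read 0.25, 0.029, 0.27 and 0.0037. Its diet effect of 0.14 ± 0.07 (1.10-fold higher with CLA) was the highest of the set. Sat1, spermidine/spermine acetyltransferase, which marks polyamines for breakdown and export, read 0.0057, -0.082, -0.26 and 0.31. Arrays 3 and 4, of one dye orientation, were its lowest and highest, and the diet effect was -0.0069 ± 0.09.

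The probes with no symbol differed from the Sat1 probe and from each other. Sat1-related probe A read 0.04 and 0.0027 where CLA was in Cy5, and -1.10 and -0.97 where it was in Cy3. As measured, it was therefore lower with CLA in 1 dye orientation only. Its dye effect was 0.53 and its diet effect -0.50 ± 0.06, nearly equal in size and opposite in sign. The probe was dim, with CLA intensities of 99, 269, 183 and 158 and control intensities of 97, 269, 390 and 308, all flagged by the scanner as well above background. Sat1-related probe B stood at -0.06 ± 0.06, between -0.19 and 0.05 as measured. Which transcript either probe reads is not given in the files beyond those descriptions.

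**Figure D3:**
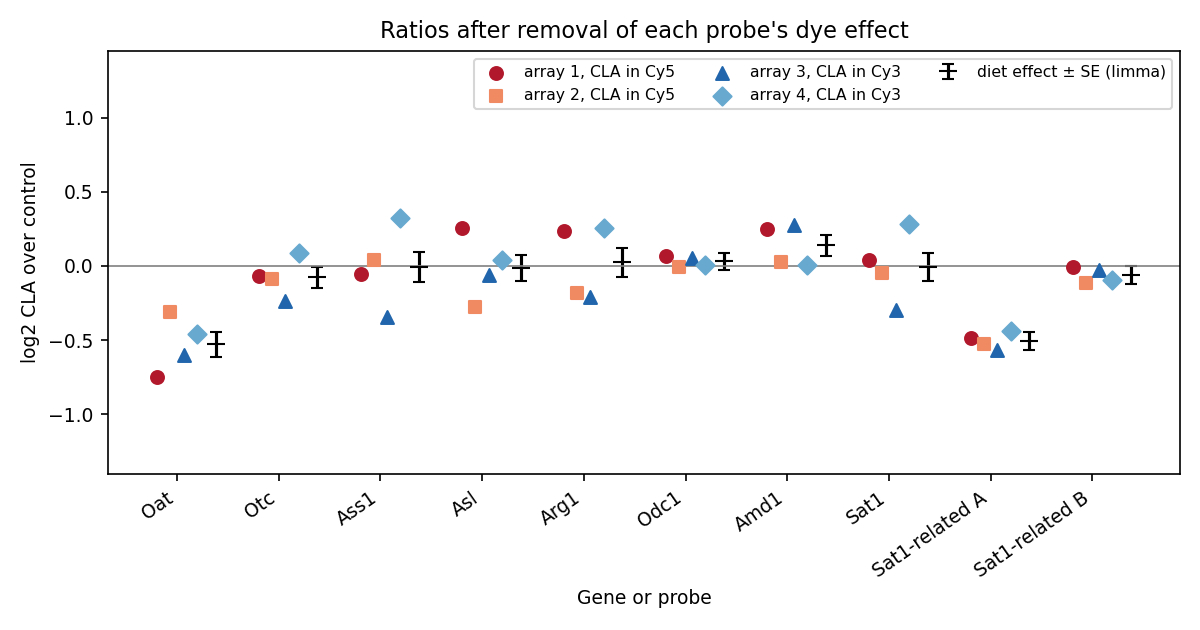
Log2 CLA over control of the 10 probes after each probe's dye effect was taken out, with 1 point per array and the diet effect ± SE by limma as a black bar. Oat (-0.53) and Sat1-related probe A (-0.50) lie apart from the others, which stand between -0.08 and 0.14.

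Set beside the other members on the same array, with dye effects removed, Oat was lower than Otc by 0.68, 0.22, 0.37 and 0.54 on the log2 scale. The mean of Oat minus Otc was -0.45 ± 0.20 (SD, n = 4 arrays). Oat minus Odc1 had a mean of -0.56 ± 0.22, and Oat minus Arg1 one of -0.55 ± 0.37. The smallest gap of all was to Asl on array 2, at -0.032. Since Oat drew attention to the set by its low ratio, these gaps are a description too.

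Over the 8 genes, 5 lay below 0 and the median diet effect was -0.0082, against 0.0060 over all 20176 tested, of which 47.7% lay below 0. The median of the 8 was 0.014, -0.24, 0.03 and 0.13 as measured on arrays 1 to 4. The dye effect exceeded the diet effect in size for 6 of the 10 probes and for 67.9% of all tested. By limma with Benjamini-Hochberg adjustment over all tested, 1 of the 10 probes, Sat1-related probe A, was under 0.05, where 0.0694% of all tested were. That call was lost in 10 of 14 processing alternatives, among them equal dye size (-0.38). Oat was not under 0.05 as processed here, and was so with median centring.

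Enzymes, carriers and regulators around these genes, and genes of perivenous and periportal hepatocytes, were taken in 7 lists. Of 60 genes tested in them, 1 passed the adjusted threshold, where 0.0694% of all tested did. It was Apoa4 of the periportal list, with a diet effect above 0. In the list of urea cycle entry, mitochondrial carriers and arginine use, 6 of 10 tested genes lay below 0 (median -0.03) and 0 passed by limma, with 2 at an unadjusted p under 0.05, as had 15.9% of all tested. These were Slc7a2, a cationic amino acid transporter of liver, at 0.26 ± 0.09 and Nos3, endothelial nitric oxide synthase, at -0.15 ± 0.06. Slc7a2 had its highest ratio on array 4 (0.81 as measured).

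Around glutamate, glutamine and proline, 6 of 9 lay below 0 (median -0.04) and 0 passed by limma. At an unadjusted p under 0.05 there were 3, of which 1 was higher and 2 were lower. Got1, cytosolic aspartate aminotransferase, stood at -0.45 ± 0.13. As measured it was 0.47 on array 1 and -0.42, -0.98 and -0.89 on the others. With its dye effect removed it was -0.011, -0.90, -0.50 and -0.41. Prodh, proline dehydrogenase, stood at -0.19 ± 0.06, and Prodh2, the higher one, at 0.16 ± 0.07. Glul, glutamine synthetase of perivenous hepatocytes, stood at -0.04 ± 0.06.

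For polyamine synthesis, breakdown and control, 4 of 5 lay below 0 (median -0.09), and 0 passed by limma, with 0 at an unadjusted p under 0.05. Oaz3, an antizyme that binds ornithine decarboxylase, stood at -0.11 ± 0.06 and Dohh, which completes hypusine on the translation factor eIF5A, at -0.09 ± 0.06. A probe described only as spermidine synthase, which the rule does not take in and which was picked after its values were seen, stood at 0.07 ± 0.07.

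In the methionine and S-adenosylmethionine list 3 of 7 lay below 0 (median 0.03), 0 passed by limma and 3 had an unadjusted p under 0.05. Ahcy, S-adenosylhomocysteine hydrolase, stood at -0.24 ± 0.06 and Gnmt, glycine N-methyltransferase, at -0.20 ± 0.07. Of 9 regulators of urea cycle genes, 4 lay below 0 (median 0.01), and 0 passed by limma with 3 at an unadjusted p under 0.05. Cebpa, a transcription factor of hepatocytes, stood at 0.32 ± 0.06 and Foxa2, another, at -0.21 ± 0.06. As measured, Cebpa was -0.48 and -0.40 with CLA in Cy5 and 1.01 and 1.14 with CLA in Cy3, and with equal dye size it stood at 0.14. The authors' deposited table lists 775 significant probes, where the arrays hold 20868 outside controls. Of the 10 probes of the set 0 appear in it, which at that share says little about the set. In the same table Foxa2 has a ratio of 0.758, Ppargc1a one of 0.688 and Prodh2 one of 1.36, on a linear scale. The diet effects here were -0.21, -0.19 and 0.16 on the log2 scale, in the same directions. Put on the same scale, each lay nearer to no change than the authors' ratio.

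Of 12 perivenous hepatocyte genes tested 11 lay below 0, as did 47.7% of all tested. Their median was -0.04, against 0.0060 over all tested. By limma 0 passed, with 2 at an unadjusted p under 0.05, as had 15.9% of all tested. Rgn, regucalcin, stood at -0.37 ± 0.06 and was even over the arrays as measured (-0.35, -0.37, -0.31 and -0.45). Cyp1a2, a cytochrome P450, stood at -0.42 ± 0.11, with -1.05 on array 1 and 0.53 on array 4 as measured. With its dye effect removed these were -0.47 and -0.06. Of 9 periportal genes 5 lay below 0 (median -0.02), and 1 passed, Apoa4, at 0.95 ± 0.07 (limma adjusted p = 0.025). As measured, Apoa4 was -0.12 and -0.05 with CLA in Cy5 and 2.15 and 1.80 with CLA in Cy3. Its dye effect was -1.03, and with equal dye size it stood at 0.70. At an unadjusted p under 0.05, 1 of the periportal genes was higher and 3 were lower. The lower ones were G6pc, of glucose release (-0.53 ± 0.07, limma adjusted p = 0.053), Cyp2f2, a cytochrome P450 (-0.26 ± 0.07), and Cdh1, E-cadherin (-0.20 ± 0.06). As measured, G6pc was above 0 on arrays 1 and 2 (0.088 and 0.22) and at -1.09 and -1.36 on arrays 3 and 4. Its dye effect was 0.69, and with equal dye size G6pc stood at -0.37. No list of either zone holds Oat or the urea cycle genes here.

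**Figure D4:**
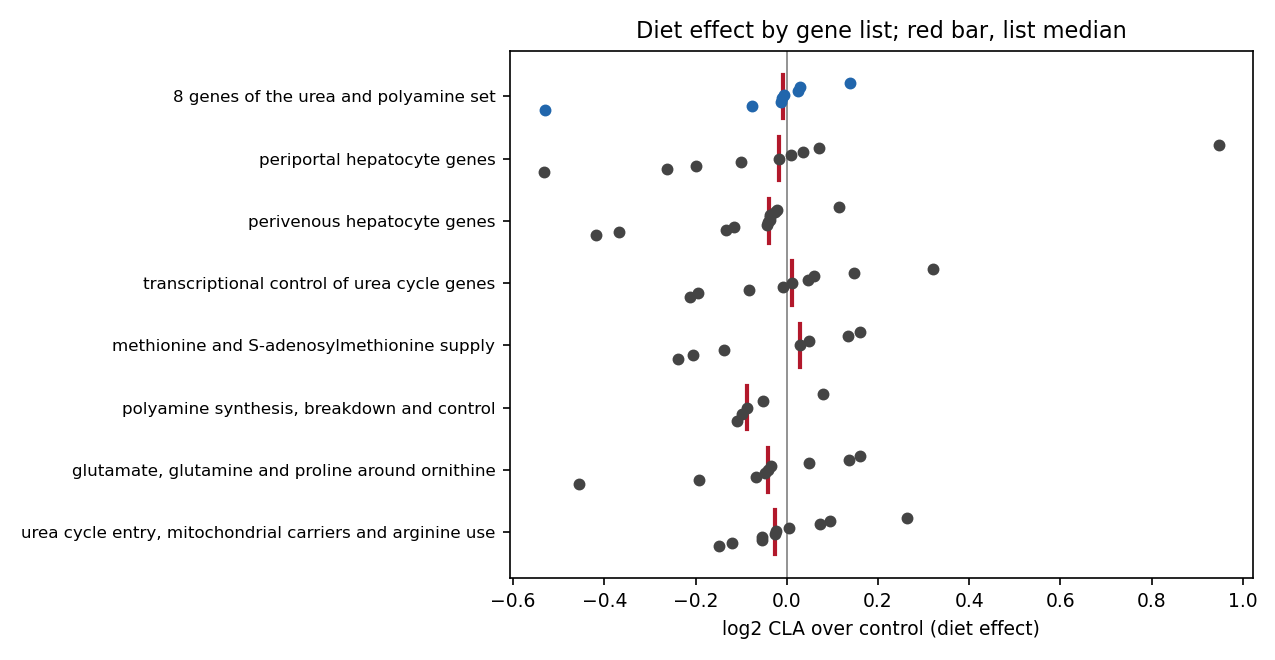
Diet effect (log2 CLA over control) of each tested gene in the 7 surrounding lists and of the 8 genes of the set, with the median of each list as a red bar. All list medians lie between -0.09 and 0.03, and Oat is the lowest point of the top row.

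The 4 named genes given here as nearest to Oat in their dye-corrected ratios, by Euclidean distance over the 4 arrays among 8971 named genes, were Olfr1095 (distance 0.09), Ang5 (0.20), Cyp27a1 (0.21) and Rnase4 (0.24). Olfr1095 is an olfactory receptor, Ang5 and Rnase4 belong to the ribonuclease A family, and Cyp27a1 is a sterol hydroxylase of bile acid synthesis. Their diet effects, near that of Oat through the choice by distance, ran from -0.53 to -0.51. Cyp27a1 read -0.53, -0.34, -0.71 and -0.45 as measured.

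Of hepatocyte markers 4 of 8 were tested, and all 4 were well above background on every array in both diets (diet effects of -0.04 to 0.22). Exocrine pancreas markers lay above 0 for 6 of 6 tested (median 0.39), with their highest ratios on array 4 (median 1.23, against -0.02, 0.09 and -0.0089 on arrays 1 to 3). Their summed intensity ran from 1431 to 3753 with CLA and from 1275 to 1857 in control, and none was at background on any array. The part of pancreas RNA in the ratios of the set was not tested. Without array 4, Oat stood at -0.57, and all 4 urea cycle genes lay below 0, with Ass1 at -0.18, Otc at -0.16, Arg1 at -0.09 and Asl at -0.04. Sat1 then stood at -0.15, Odc1 at 0.04 and Amd1 at 0.21. Without array 3 instead, Oat stood at -0.49 and all 4 urea cycle genes lay above 0. Ass1 was then at 0.16, Arg1 at 0.14, Asl at 0.01 and Otc at 0.0056. Sat1 was at 0.14, Odc1 at 0.02 and Amd1 at 0.07. Either fit leaves only 1 array with CLA in Cy3. Of the 2 blood genes tested, Hba-a1 had a diet effect of -0.34 ± 0.27 and ran from -1.55 on array 4 to 1.00 on array 2 as measured, while Ptprc stood at 0.04 ± 0.07, with 0.19 on array 4 and 0.053 on array 2.

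**Figure D5:**
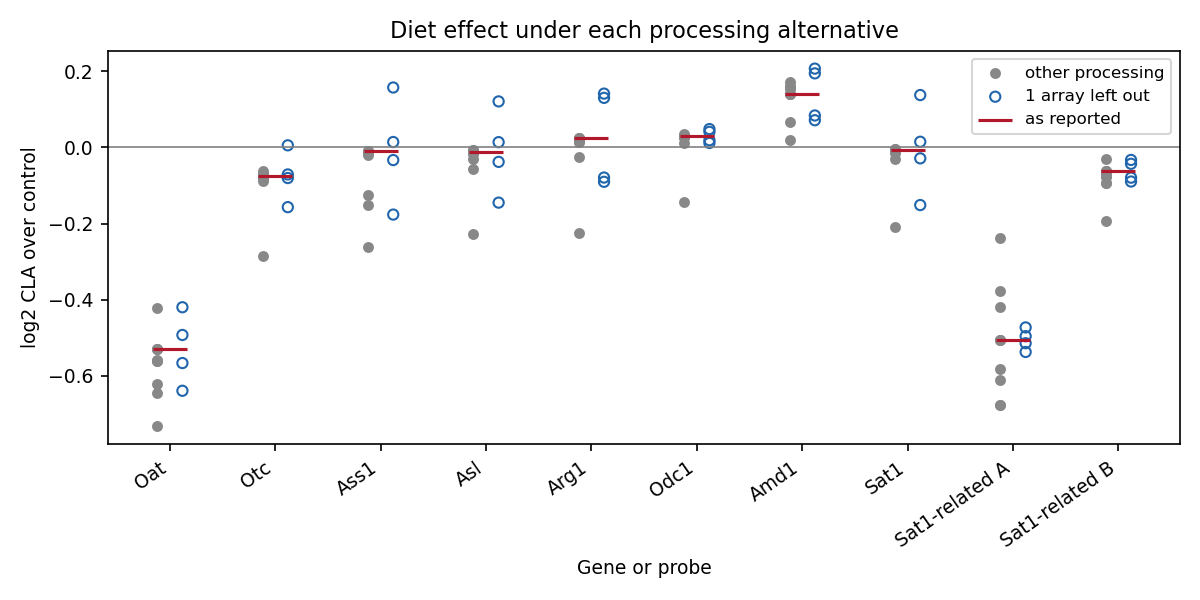
Diet effect of each probe (log2 CLA over control) as reported (red bar), under the other processing alternatives (grey) and with 1 array left out (open circles). Oat runs from -0.73 to -0.42 and Amd1 from 0.02 to 0.21, while Arg1 runs from -0.23 to 0.14 across 0.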

How the data were processed

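The deposited scanner files give each spot's mean intensity and local background (median) for red and green, plus quality flags, from Agilent Feature Extraction per the file headers. The deposited log10 ratios of the series matrix equal the scanner's processed signals, turned as CLA over control on every array (medians 0.0010, -0.0023, -0.0020 and -0.0011). Of the authors' deposited table, the ratio, the p-value and the signed fold change (a score) were read, with no account of the authors' test in the sources used here.

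Intensities were corrected with normexp (offset 50) and loess within each array in limma 3.58.1 under R 4.3.3, leaving out 1075 control spots and outlier flags. Of the probes, 80.2% to 95.7% per array and diet were well above background. A probe was tested if well above background in either diet on at least 2 arrays and measured on at least 3. In all 8947 probes were named by RefSeq accession through a GRCm38.p6 table and 400 by the symbol in the description, and 11521 stayed unnamed. The probe of highest mean intensity stood for a gene. Limma fitted log2 red over green with an intercept per gene for dye and the diet coded by dye orientation, with Benjamini-Hochberg adjustment and a threshold of 0.05. The number of arrays limits the precision. The fit was tested on simulated data.

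The set, the lists and the tests were chosen with earlier results of these data known. The rule named all probes of the set, in each list the genes past the threshold or else the 2 of smallest p, and the 5 genes nearest to Oat, of which 1 is not reported here. Glul, Ppargc1a, Prodh2, G6pc, Cyp2f2, Cdh1, Ttr, Ptprc and Hba-a1 were named outside it after their values were seen. Alternatives covered background, normalization, dye term and size, filters, the series matrix and each array left out.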

Additional observations from a re-analysis of the deposited data

How the results depend on the processing

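The count of 14 genes called over all became 143 (29 higher, 114 lower) with median centring and 52 (35 higher, 17 lower) where probes had to be well above background in both channels on all 4 arrays. It was 0 with no background subtraction, a normexp offset of 10, processed signals, the series matrix, scaling between arrays, no dye term and equal dye size (limma, 293 to 3413 at an unadjusted p under 0.05), and 2 to 89 without 1 array. The median of the 8 genes was -0.23 with median centring and -0.12 to 0.05 without 1 array. In the set the count of 1 became 2 with median centring (Oat and Sat1-related probe A), 0 in the 7 settings named and 0 to 1 without 1 array, with the call lost without arrays 1, 2 and 3. Of the surrounding lists 1 gene became 7, 6 of them lower, with median centring, 2 with the strict background filter, 0 in the same 7 settings and 0 to 2 without 1 array. Oat, Amd1 and both Sat1-related probes had 1 sign in all 14 alternatives. The sign of Arg1 turned in 4, of Ass1, Asl and Sat1 in 2 each, and of Otc and Odc1 in 1 each. The cause was not tested. Each array's ratio already pairs a CLA pool with a control pool, and the labels give no further pairing between arrays. Only 4 arrays limit what can be seen.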
